A study of Mus musculus with 10 samples.

Results

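The neurexins, neuroligins and leucine-rich repeat transmembrane proteins (LRRTMs) hold the 2 sides of a synapse together. The list named 9 genes: *Nrxn2*, *Nrxn3*, *Nlgn1*, *Nlgn2*, *Nlgn3*, *Lrrtm1*, *Lrrtm2*, *Lrrtm3* and *Lrrtm4*. A probe belonged to the list when the RefSeq accession given for it was that of a transcript of any of these genes. Gene symbols given with the probes were not used. In all, 10 of the 41174 probes on the array matched, and they covered 7 of the 9 genes. *Lrrtm1* and *Lrrtm4* matched no probe by accession and are not analysed here. *Nrxn2*, *Nrxn3* and *Lrrtm2* had 2 probes each, and the other genes had 1.

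The arrays came from 10 male C57BL/6J mice, single-housed from 3 weeks of age and fed a standard lab diet (SD) or a diet enriched in n-3 PUFA by fish oil (FD) for 20 weeks, to an age of 5 months. RNA of the left hemibrain was labeled with Cy-5 and a second RNA with Cy-3, always in that orientation, so a bias of the dyes cannot be told apart from a difference between the RNAs. Sources differ on the rest: the diet entry gives FD for each Cy-5 sample and a pooled SD hemibrain for Cy-3, the descriptions call all 10 samples controls, and the methods name FD and SD mice with a commercial reference RNA (Agilent) in Cy-3. The methods also count fewer samples than the 10 arrays used here. The diet of each array was therefore treated as unknown, no FD and SD groups were formed, and each value is given per array or as a median and range over the 10 arrays. The arrays carry the numbers of the animals, from C10-413 to C10-437. Slide 1 held C10-415, C10-416, C10-417 and C10-423, slide 2 held C10-424, C10-425, C10-434 and C10-435, and C10-413 and C10-437 were each alone on a slide.

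Array C10-434 was dimmer than the rest. Its Cy-5 signal cleared the background by the software's flag for 49.6% of probes, and on the remaining 9 arrays for 68.2% to 76.9%, and values set by it are named as such below. In bulk tissue, fewer cells of a type and less RNA per cell cannot be told apart. The markers of neurons were higher in Cy-5 by at least 2-fold on each array for all 6 of the 8 listed genes that had a value, with a median log2 Cy-5/Cy-3 of 5.53. The 6 markers of proliferating cells were lower by at least 2-fold on each array, with a median of -6.42. The Cy-5 channel thus carried the markers of brain tissue, and these ratios go against the label of a hemibrain pool in Cy-3. The ratios below therefore set hemibrain RNA against an RNA of uncertain origin.

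Neurexins are presynaptic membrane proteins. Neuroligins and LRRTMs are postsynaptic membrane proteins that bind neurexins across the cleft, and secreted proteins such as cerebellins and neurexophilins bind neurexins too. Neuroligin 1 is known from excitatory synapses, neuroligin 2 from inhibitory synapses, and neuroligin 3 from both, while LRRTMs act mainly at excitatory synapses.

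Promoter windows are shown for the pair of genes with the highest median ratios, *Lrrtm3* and *Nlgn1*, and for the gene with the lowest, *Nlgn2*. The windows run from 250 bases before to 50 bases after an annotated start and were taken from RefSeq, build GRCm38.p6. Of the 7 measured genes, 4 had such a window: *Nlgn1*, *Nlgn2*, *Lrrtm3* and *Nrxn3*. Each sequence is on the minus strand and is written 5′ to 3′ in lower case, and capitals mark matches to the motifs named after it.

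Nlgn2, chr11:69837735-69838034: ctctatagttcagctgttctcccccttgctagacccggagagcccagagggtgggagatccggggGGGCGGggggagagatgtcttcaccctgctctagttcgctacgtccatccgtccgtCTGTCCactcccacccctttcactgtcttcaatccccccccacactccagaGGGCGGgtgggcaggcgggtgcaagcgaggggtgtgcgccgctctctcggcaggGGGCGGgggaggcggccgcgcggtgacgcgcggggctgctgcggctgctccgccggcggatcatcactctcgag
Nlgn1, first start, chr3:26331860-26332159: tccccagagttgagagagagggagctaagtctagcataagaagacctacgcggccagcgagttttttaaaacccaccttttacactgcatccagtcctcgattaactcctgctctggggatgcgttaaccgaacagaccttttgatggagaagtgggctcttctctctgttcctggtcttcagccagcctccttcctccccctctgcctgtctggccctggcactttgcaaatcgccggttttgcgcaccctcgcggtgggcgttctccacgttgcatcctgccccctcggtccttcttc
Nlgn1, second start, chr3:26153937-26154236: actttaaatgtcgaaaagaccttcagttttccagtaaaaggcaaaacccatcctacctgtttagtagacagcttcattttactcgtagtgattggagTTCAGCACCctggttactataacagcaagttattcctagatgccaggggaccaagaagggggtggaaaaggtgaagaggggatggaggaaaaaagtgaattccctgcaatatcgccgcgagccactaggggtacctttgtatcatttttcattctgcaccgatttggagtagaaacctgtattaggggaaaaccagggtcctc
Lrrtm3, chr10:64090206-64090505: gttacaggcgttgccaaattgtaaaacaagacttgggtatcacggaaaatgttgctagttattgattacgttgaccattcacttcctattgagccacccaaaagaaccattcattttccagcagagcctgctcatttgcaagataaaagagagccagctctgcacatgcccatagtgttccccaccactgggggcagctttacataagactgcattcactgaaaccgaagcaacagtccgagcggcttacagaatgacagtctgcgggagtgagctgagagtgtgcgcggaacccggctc

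The *Nlgn2* window was 68.7% G and C with 26 CpG dinucleotides, against medians of 52.7% and 7 over all 32851 windows of this length. It held 3 GC boxes (GGGCGG on either strand), a motif present in 35.66% of all windows. The *Nlgn1* windows were 55.7% and 44.7% G and C, with 14 and 6 CpG, and the *Lrrtm3* window was 48.7% with 10 CpG. None of these 3 windows held a GC box. The second *Nlgn1* window held TTCAGCACC, the left half-site of RE1, the element bound by the neuronal gene repressor REST, which is present in 0.37% of all windows. The right half-site searched (GGACAG on either strand) was found in the *Nlgn2* window and in 22.18% of all windows. The TATA box (TATAAA) and the cAMP response element (TGACGTCA) were found in none of the 4 windows, against 13.62% and 1.79% of all windows. These matches are descriptions of the letters in the windows.

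Adhesion genes were mostly far higher in the hemibrain channel. By its brightest probe, 6 of 7 genes had a log2 Cy-5/Cy-3 of at least 1, that is at least 2-fold, on each of the 10 arrays, where 15.9% of the 17650 named genes with a value on all arrays did. The exception was *Nlgn2*, which passed on 9 arrays. The median over the 7 genes was 4.84, and over all named genes it was 0.05. That 4.84 was the value of *Nrxn3*, the middle gene, which stood at 3.05 with normexp and 3.52 with a background floor. All 10 arrays were above 0 for all 10 probes. At the level of probes, 12.4% of 40060 had a ratio of at least 2-fold on all arrays. The same measure in the other direction held for 16.29% of genes and for no member.

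**Figure D1:**
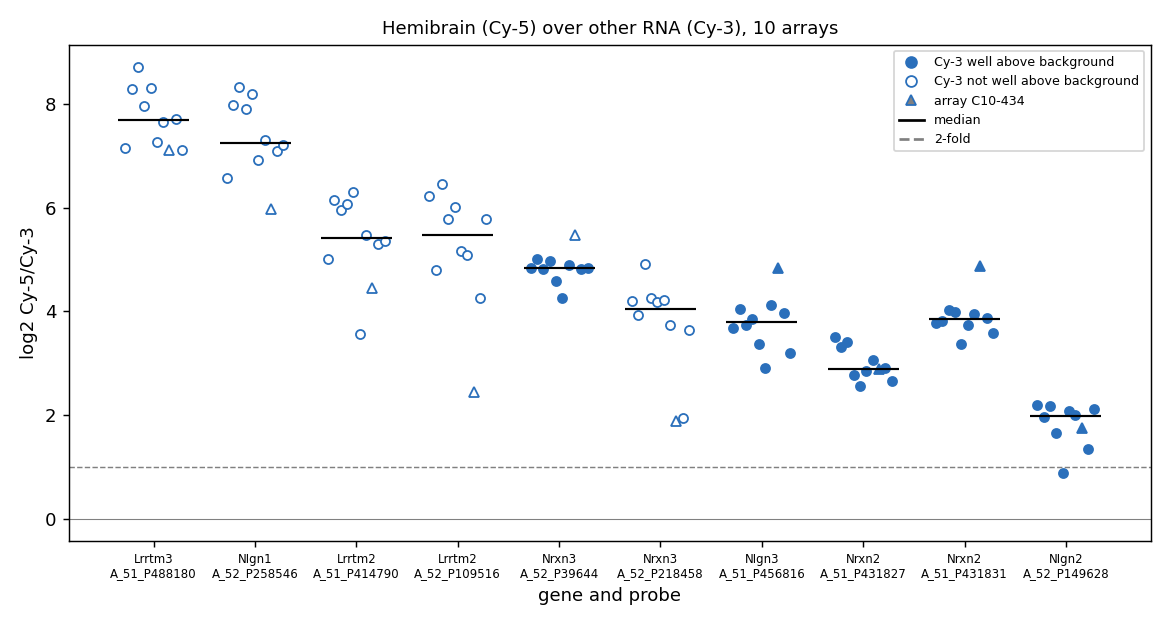
Log2 Cy-5/Cy-3 of the 10 probes (x axis) on each of 10 arrays (points, in order of array number), with the median as a bar, the 2-fold line dashed and C10-434 as a triangle. Open points mark arrays on which Cy-3 was not well above background, and a reader should see that all points of *Lrrtm3*, *Nlgn1* and *Lrrtm2* are open and that C10-423 takes *Nlgn2* to 0.88.

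Of the neurexins, *Nrxn2* was read by A_51_P431827, its brightest probe, and A_51_P431831. The first gave a median log2 Cy-5/Cy-3 of 2.89, from 2.55 on C10-423 to 3.51 on C10-413, or a median of 7.43-fold. The second gave a median of 3.84, from 3.36 on C10-423 to 4.88 on C10-434. Both probes were well above background in both dyes on all 10 arrays, but the second read higher on all of them, by 0.26 on C10-413 to 1.99 on C10-434. On C10-434 the Cy-3 signal of the second probe was 431, the lowest of the 10 arrays, which ran up to 2389. Without C10-434 its ratios lay between 3.36 and 4.02.

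*Nrxn3*, also a presynaptic neurexin, gave a median log2 ratio of 4.84 by its brightest probe A_52_P39644, from 4.25 on C10-424 to 5.47 on C10-434. Cy-3 was well above background on 9 arrays, and C10-434 was the exception. Without that array the highest value was 5.01. The other probe, A_52_P218458, had a median of 4.05 and ran from 1.89 on C10-434 to 4.92 on C10-416. It was dim: Cy-5 was well above background on 9 arrays and Cy-3 on none. With Cy-3 raised on each array to the lowest signal of any probe well above background there, its ratio was -0.06 on C10-434, so no fold is given for it. *Nrxn3* was thus measured in both dyes by 1 of its probes.

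As measured, the neuroligins spread over most of the range seen in the 7 genes, with the upper end resting on a Cy-3 signal near background. *Nlgn1*, read by A_52_P258546, had a median log2 Cy-5/Cy-3 of 7.25, from 5.97 on C10-434 to 8.32 on C10-416. The software called the signal well above background on 10 of 10 arrays in Cy-5 and on 0 of 10 in Cy-3, with processed Cy-3 signals of 9.32 to 18.5 against Cy-5 signals of 1066 to 3301. Only a lower bound can therefore be read, and it holds for the processed signals and the floor used. With Cy-3 raised to the lowest signal well above background, *Nlgn1* was at least 16.2-fold higher in Cy-5 on each array, and the median of that bound was 46.2-fold. The lowest bound came from C10-434, and without that array it was 34.0-fold, on C10-435. The median log2 ratio of *Nlgn1* was 2.91 with normexp and 3.87 with a background floor. Both are under the lowest log2 bound, 4.02, so the bound does not hold for those settings.

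*Nlgn2*, the neuroligin of inhibitory synapses, had the lowest median ratio of the 7 genes as measured, although with normexp or a background floor *Lrrtm2* was lower. Its probe A_52_P149628 gave a median log2 ratio of 1.98, or 3.95-fold, from 0.88 on C10-423 to 2.20 on C10-413. After C10-423 the lowest arrays were C10-435 at 1.34, C10-417 at 1.65 and C10-434 at 1.75, and the other 6 lay between 1.97 and 2.20. Both dyes were well above background on all arrays. On C10-423 Cy-5 was 12719 and Cy-3 was 6934, the highest Cy-3 signal of this probe on any array. The Cy-5 level, that is the log2 Cy-5 signal less the 75th percentile of its array, was also lowest on C10-423, at 2.12 against 2.59 to 3.38 on the other 9. *Nlgn2* was therefore the only measured member with a ratio under 2-fold on an array by its brightest probe, while 13.8% of named genes had a median ratio at least as high.

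*Nlgn3*, whose product is found at both kinds of synapse, lay between the other neuroligins. Its probe A_51_P456816 gave a median log2 ratio of 3.79, or 13.8-fold, from 2.91 on C10-424 to 4.84 on C10-434, with both dyes well above background on all 10 arrays. The extremes came with the Cy-3 signal, which was 557 on C10-424 and 74.5 on C10-434, whereas Cy-5 was 4197 and 2127. Its range over the arrays was 1.92, and 1.21 without C10-434. Of the 10489 genes well above background in both dyes on all arrays, 2.2% had a wider range, and the median range was 0.79. That place rests on C10-434: over the other 9 arrays, 11.8% of the same genes had a wider range than *Nlgn3* and the median range was 0.74. Over these 9 arrays the share was 8.4% for *Nlgn2*, with a range of 1.32, and 25.7% for *Nrxn2*, with 0.96.

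The measured LRRTM genes were both high in Cy-5 and near background in Cy-3. *Lrrtm3*, read by A_51_P488180, had the highest median log2 Cy-5/Cy-3 of the 7 genes, 7.69, from 7.11 on C10-434 to 8.71 on C10-416. Again Cy-5 cleared the background on 10 of 10 arrays and Cy-3 on 0 of 10, and *Lrrtm3* was at least 33.3-fold higher in Cy-5 on each array, with a median bound of 96.1-fold. Here too C10-434 set the lowest bound, which was 61.8-fold, on C10-425, without it. The *Lrrtm3* medians with normexp and a background floor, 4.03 and 4.70, were under the lowest log2 bound of 5.06. Its Cy-5 level was among the steadiest of the members, between 0.42 and 1.16.

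*Lrrtm2* was read by A_51_P414790 and A_52_P109516, whose median log2 ratios were 5.41 and 5.47. The brightest probe, A_51_P414790, ran from 3.57 on C10-424 to 6.30 on C10-423 and cleared the background on 10 arrays in Cy-5 and on 0 in Cy-3. It was at least 6.87-fold higher in Cy-5 on each array, with a median bound of 15.5-fold, and without C10-434 the lowest bound was 9.99-fold. With normexp and a background floor its median log2 ratios, 1.37 and 1.96, were under the lowest log2 bound of 2.78. The other probe ran from 2.45 on C10-434 to 6.46 on C10-416. On C10-434 neither of its dyes was well above background, so no fold is given for that array. On the other 9 arrays its lowest ratio was 4.26, and it was at least 4.32-fold higher in Cy-5 on each. Neither probe was higher throughout: A_51_P414790 read higher on 6 of 10 arrays. *Nlgn1*, *Lrrtm2* and *Lrrtm3* were 3 of 129 named genes (0.73%) with a Cy-5 signal over background on each array and a Cy-3 signal over background on no array.

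**Figure D2:**
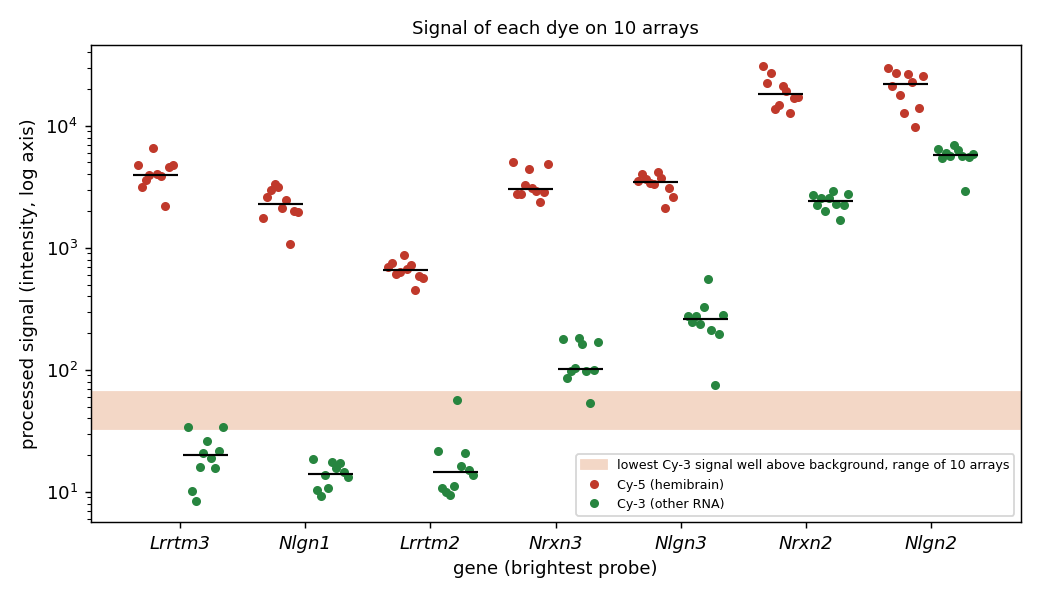
Processed signal (log axis) of Cy-5 and Cy-3 for the brightest probe of each gene on 10 arrays, with medians as bars and a band for the lowest Cy-3 signal well above background. *Nlgn1* Cy-3 signals, 9.32 to 18.5, lie under the band, which runs from 32.5 to 65.7, and all *Nlgn2* Cy-3 signals, 2916 to 6934, lie far above it.

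Ordered by the median ratio of the brightest probe, the genes ran *Lrrtm3*, *Nlgn1*, *Lrrtm2*, *Nrxn3*, *Nlgn3*, *Nrxn2*, *Nlgn2*. The first 3 places belonged to genes whose Cy-3 signal was well above background on no array, so for these only the bounds can be read, at medians of 96.1, 46.2 and 15.5-fold. *Lrrtm3* was above *Nlgn1* on 9 of 10 arrays by a median of 0.35, and these neighbours did not separate beyond their spread. The third place of *Lrrtm2* rests on its Cy-3 signal: its ratio was above that of *Nrxn3* on 8 of 10 arrays, but with Cy-3 raised to its floor it was above on 0 of 10, at a median of 3.96 against 4.84. The other 4 genes, measured in both dyes on all arrays but for *Nrxn3* on C10-434, kept their order on 10 of 10 arrays. The median differences were 1.11 for *Nrxn3* over *Nlgn3*, 0.77 for *Nlgn3* over *Nrxn2* and 1.18 for *Nrxn2* over *Nlgn2*. The smallest of these on any array was 0.06, for *Nlgn3* over *Nrxn2* on C10-424. With the second *Nrxn2* probe, at 3.84, *Nrxn2* would stand beside *Nlgn3* at 3.79.

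The only grouping that the sources settled was the slide. The 4 arrays of slide 2 were compared with the 4 of slide 1 by limma over 40299 probes, with Benjamini-Hochberg adjustment. The slides hold different animals of unknown diet, so slides and animals cannot be told apart, and p-values measure only the spread between these arrays. None of the 10 member probes had an adjusted p under 0.05, where 0.0744% of all probes did. At an unadjusted p under 0.05, 5 of the 10 member probes passed, against 10.0% of all probes, and all 5 were lower on slide 2. They belong to 4 genes, and 2 of them share *Lrrtm2*. The count was 3 without C10-416, C10-417, C10-423 or C10-435 and 4 without C10-434. It was 1 with a floor on background-subtracted signals and 0 with normexp. The 1 probe with that floor was *Nrxn3* A_52_P39644, which was not among the 5. It was higher on slide 2, by 0.39 (limma unadjusted p = 0.027).

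*Nlgn1* lay between 7.91 and 8.32 on slide 1 and between 5.97 and 7.30 on slide 2, without overlap. The limma difference was -1.28 (SE 0.28, 95% interval -1.92 to -0.64), with an adjusted p of 0.139. *Lrrtm3* lay between 7.96 and 8.71 on slide 1 and between 7.11 and 7.72 on slide 2, a difference of -0.88 with a limma adjusted p of 0.178. The brightest *Lrrtm2* probe lay between 5.96 and 6.30 against 3.57 to 5.48, a difference of -1.43 with a limma adjusted p of 0.206. These were the 3 member probes whose slides did not overlap, all lower on slide 2, and 2.31% of all probes were lower without overlap and 3.34% higher. The other *Lrrtm2* probe and *Nrxn3* A_52_P218458 differed by -1.52 and -1.38, with limma adjusted p of 0.428 and 0.421, and their slides overlapped. Without C10-434 these were -0.93 and -1.02. With a floor on background-subtracted signals and an offset of 50 the differences shrank, to -0.06 for *Nlgn1*, -0.09 for *Lrrtm3*, -0.15 for the second *Lrrtm2* probe and -0.14 for *Nrxn3* A_52_P218458, and the first *Lrrtm2* probe was 0.29 higher on slide 2.

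The 5 probes with an unadjusted p under 0.05 were the 5 whose Cy-3 signal was well above background on no array. The other 5, for *Nrxn2*, *Nrxn3*, *Nlgn2* and *Nlgn3*, differed by -0.08 to 0.32, with limma adjusted p of 0.854 to 0.998. The lowest Cy-3 signal well above background moved with the slides: it was 32.5 to 37.4 on the arrays of slide 1 and 55.6 to 65.7 on those of slide 2. Among all 355 probes whose Cy-5 signal cleared the background on each of the 8 arrays and whose Cy-3 signal did so on 0 of them, 89.6% were lower on slide 2, 45.4% passed an unadjusted p under 0.05 and the median difference was -0.81. *Nlgn1*, *Lrrtm3* and the brightest *Lrrtm2* probe are 3 of these 355. The part of the background in the difference was not tested.

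For these 5 probes, the hemibrain channel alone gave smaller differences between the slides. By the Cy-5 level, *Lrrtm3* differed by 0.07 and the brightest *Lrrtm2* probe by 0.06, both higher on slide 2, where their ratios had been lower. *Nlgn1* remained lower on slide 2 by its Cy-5 level, at -0.41 (95% interval -0.80 to -0.02, limma adjusted p = 0.313), and was 1 of 10 member probes with an unadjusted p under 0.05, where 15.0% of all probes had one. The Cy-5 level differences of the 10 probes ran from -0.54 to 0.18. Without C10-434 the ratio difference of *Nlgn1* was -0.99, with a limma adjusted p of 0.103.

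**Figure D3:**
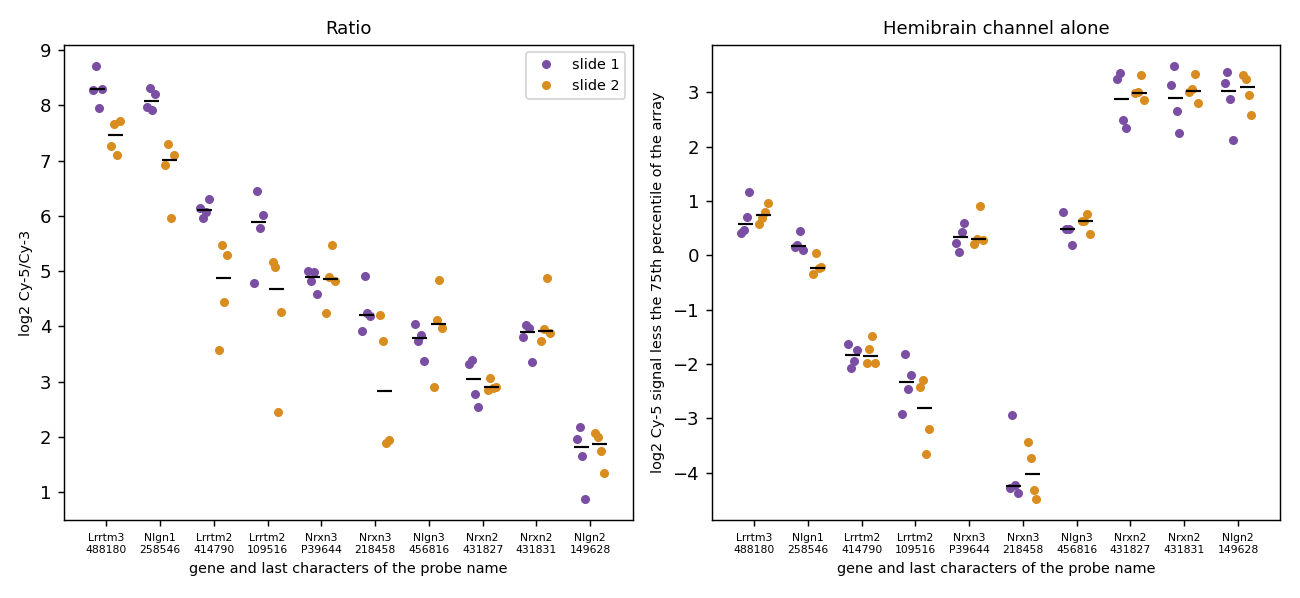
Log2 Cy-5/Cy-3 (left) and Cy-5 level (right, log2 Cy-5 signal less the 75th percentile of the array) of the 10 probes on the 4 arrays of slide 1 and the 4 of slide 2, with medians as bars. *Nlgn1*, *Lrrtm3* and the first *Lrrtm2* probe separate by ratio, with slide 2 lower, while by Cy-5 level *Lrrtm3* and *Lrrtm2* overlap.

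Most genes listed as ligands of the neurexins were also higher in Cy-5. Of the 12 genes listed as extracellular ligands, 9 were higher in Cy-5 by at least 2-fold on all arrays, 1 was lower and 2 did neither. The median over the genes was 3.92, beside 15.9% and 0.05 over all named genes. *Nxph1*, a secreted neurexophilin, was highest with a median log2 ratio of 6.65, though Cy-3 was well above background on no array, and *C1ql3* stood at 6.43. *Cbln1* and *Cbln2*, cerebellins that bridge neurexins and glutamate receptors of the delta type, stood at 3.82 and 5.47. *Dag1*, encoding dystroglycan, which also links cells to the matrix outside the brain, was lower in Cy-5 on every array, at a median of -1.93. *Gpc4*, a glypican, and *Nxph4* stood at -0.16 and 0.31.

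The MDGA proteins bind neuroligins and keep neurexins from them. *Mdga2* had a median log2 ratio of 3.79 and was at least 2-fold higher on all arrays, with Cy-3 well above background on 5. *Mdga1* had a median of 0.14. Of the cytoplasmic scaffolds, 4 of the 8 measured genes were at least 2-fold higher on all arrays, 4 were neither and the median was 2.19. *Lin7b* and *Lin7a*, of the complex at neurexin tails, stood at 4.49 and 3.09, but *Lin7c* at -0.70 and *Cask*, of the same complex, at -0.12. *Dlg4*, encoding PSD-95, which binds neuroligin tails, stood at 2.56, and *Gphn*, encoding gephyrin of inhibitory synapses, at 0.83.

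Among other synaptic adhesion genes the count was similar in size. Of 25 listed, 17 were measured, 12 were at least 2-fold higher in Cy-5 on all arrays, none was lower by that measure and the median was 3.75. *Cadm2*, a SynCAM, was highest at 8.63, though Cy-3 was well above background on no array. *Slitrk5* and *Slitrk3*, postsynaptic leucine-rich repeat proteins, stood at 6.49 and 5.18, with Cy-3 well above background on 1 and 9 arrays. *Ptprd*, a presynaptic receptor phosphatase, stood at 5.20. *Ntng2* was lowest at -0.47, and its Cy-5 signal was well above background on no array. *Lrrtm3* lies within the span of the catenin gene *Ctnna3*, whose median ratio was 1.04 with Cy-5 well above background on 2 arrays, against 7.69 for *Lrrtm3* itself.

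Markers of neurons and of glia were both high in Cy-5. Those of neurons had a list median of 5.38 to 6.35 over the arrays, with the highest on C10-434. Excitatory neuron markers had a median of 4.52 over 3 genes, and the inhibitory markers *Gad1* and *Slc32a1* stood at 9.68 and 6.43. For glia, 5 of 6 astrocyte genes, 5 of 5 oligodendrocyte genes and 3 of 5 microglia genes were at least 2-fold higher in Cy-5 on all arrays, with medians of 6.61, 5.22 and 2.24. As measured, the median of the adhesion genes, 4.84, thus lay among those of neurons and of glia. The part of each cell type in the members' ratios was not tested.

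**Figure D4:**
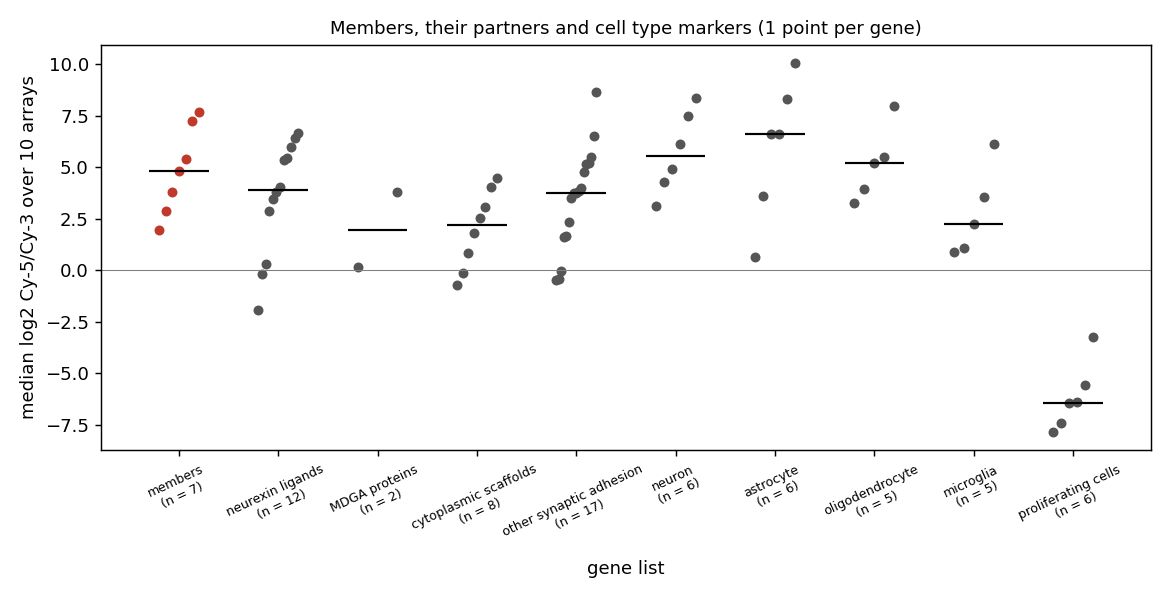
Median log2 Cy-5/Cy-3 over 10 arrays for each gene (points) of the members, their partners and the cell type markers, with the median of each list as a bar. As measured, the median of the members, 4.84, lies between those of the listed ligands, 3.92, and the neuron markers, 5.53. *Nlgn2* and *Nrxn2*, at 1.98 and 2.89 by their brightest probes, lie below the lowest neuron marker, at 3.11. The second *Nrxn2* probe, at 3.84, would lie above that marker. *Nlgn1* and *Lrrtm3*, at 7.25 and 7.69, are drawn above the highest listed ligand, *Nxph1*, at 6.65. Cy-3 was well above background on no array for any of them, so their order cannot be read. With Cy-3 raised to its floor, *Nlgn1* and *Lrrtm3* stood at 5.53 and 6.59. The proliferating cell markers lie below 0, at a median of -6.42.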

How the data were processed

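RNA of 10 hemibrains was measured on dual dye Agilent whole mouse genome arrays. The authors scanned the slides and extracted features with Agilent software, version 10.10.1.1 per the file headers, and deposited for each spot the processed signal intensity of each dye, background-corrected and dye-normalized, with flags for signals well above background. The authors also deposited a table of log2 ratios, which per the methods were normalized within each array by LOWESS, and per the file headers a log10 ratio of Cy-5 over Cy-3 for each spot, with the dyes normalized. In the table, 80.1% to 93.5% of the values of an array were within 0.001 of the log10 ratio in the files, converted to log2. The direction is therefore Cy-5 over Cy-3, and the column medians ran from -0.051 to 0.102. Genome build mm9 stands in the file headers, and its coordinates were not used.

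Here the main value was log2 of the Cy-5 over the Cy-3 processed intensity, with control spots and outlier flags left out and the spots of a probe averaged. No gene spot was saturated. Probes were named through RefSeq accessions of assembly GRCm38.p6: 27190 of 41174 probes (66.0%) matched, giving 18535 genes. For a gene with several probes, the brightest on average stood for it. A bound on a ratio used, per array, the higher of the Cy-3 signal and the lowest Cy-3 signal among probes well above background. Such a bound holds for this floor and not for the settings that add an offset. The slides were compared with R 4.3.3 and limma 3.58.1, and the test was checked on simulated data. The rest used Python 3.11.15, numpy 2.4.6 and pandas 2.3.3. The number of arrays limits the precision.

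The members, the lists and the rules were chosen with earlier results of these data known. The genes named were the members, from each list the highest, the lowest and others of known role, which were picked after their values were seen, and the 3 genes most like the members. Alternatives were loess, centring on the median, normexp with an offset of 50, a floor of 0.5 on background-subtracted signals with the same offset, the deposited table, only probes well above background, other probes of a gene, folds of 1.5 and 4, the Cy-5 level, and leaving out each array. Raising Cy-3 to its floor was added after the data were examined. Methods of the study give extraction software under another version number, which was not used.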

Additional observations from a re-analysis of the deposited data

Results flagged for a closer look

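On the *Nrxn2* probe A_51_P431831, the log2 Cy-5/Cy-3 of 4.88 on C10-434 stood apart from the other 9 arrays, which lay between 3.36 and 4.02. The gap to the next array was 0.569 of the whole range, over Dixon's 95% critical value for 10 samples. In all, 20 such gaps were tested, for the ratio and the Cy-5 level of the 10 probes, and 1 stood out, and chance gives about 1 in 20. Cy-5 was well above background on 49.6% of probes on this array. The brightest *Nrxn2* probe, A_51_P431827, read 2.89 there, its median over the arrays.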

How the results depend on the processing

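The count of 6 of 7 genes at least 2-fold higher in Cy-5 on all arrays fell to 2 of 7 with normexp and was 2 of 3 over the genes well above background in both dyes, a smaller set by construction. Leaving out 1 array gave 6 to 7, and it was 7 without C10-423. The gene medians moved by less than 1 SD under 108 of 122 alternatives and reversed under none. Most of these alternatives left out 1 array, which can move a median little. *Nlgn1*, *Lrrtm2* and *Lrrtm3* each moved by more with normexp, with a background floor and with Cy-3 raised to its floor. So did *Nrxn3*, from 4.84 to 3.05 with normexp, 3.52 with a background floor and 4.35 as the mean of its probes. *Nlgn3* moved from 3.79 to 2.86 with normexp, and *Nrxn2* from 2.89 to 3.45 as the mean of its probes. Under normexp *Nlgn1* stood at 2.91, *Lrrtm2* at 1.37 and *Lrrtm3* at 4.03, with a background floor at 3.87, 1.96 and 4.70, and with Cy-3 raised to its floor at 5.53, 3.96 and 6.59. *Lrrtm2* then fell below *Nrxn3* under all 3 settings, and below *Nlgn2*, at 1.85 and 2.06, with normexp and a background floor. No member probe was called between the slides under any of 16 alternatives, and the smallest limma adjusted p over them ran from 0.0688 to 1. The sign of a slide difference was turned as follows, in each case short of the threshold. With a background floor it was 0.29 for *Lrrtm2* A_51_P414790, 0.21 for *Nrxn2* A_51_P431827 and -0.087 for *Nlgn3*. By the Cy-5 level it was 0.055 for *Lrrtm2* A_51_P414790, 0.18 for *Nrxn2* A_51_P431827 and 0.073 for *Lrrtm3*. With normexp it was 0.14 for *Lrrtm2* A_51_P414790, 0.26 for *Nrxn2* A_51_P431827, 0.22 for *Lrrtm3* and 3.841e-05 for *Nlgn1*. Over the arrays left out in turn, it ran from -0.24 to 0.046 for *Nrxn2* A_51_P431827, with its sign turned without C10-415 or C10-416. It ran from -0.079, without C10-434, to 0.56 for *Nlgn3* and from -0.14, without C10-423, to 0.30 for *Nlgn2*. For *Nrxn3* A_52_P39644 it ran from -0.19 to 0.22, below 0 without C10-434 or C10-423. For *Nrxn3* A_52_P39644 it was also -0.065 with Cy-3 raised to its floor, -0.042 with loess and -0.027 with centring on the median. The cause was not tested. The limit on *Nlgn1*, *Lrrtm2* and *Lrrtm3* is the Cy-3 signal, which was not well above background on any array. No paired analysis was possible because no FD and SD groups were formed and each array carries the number of a different animal.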

Other observations

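Over the 10 arrays, the 3 genes whose ratio profile was most like the median profile of the adhesion genes, among 10486 candidates well above background in both dyes, were *Zfp3* (Pearson r = 0.917), *Chmp1a* (r = 0.900) and *Mamld1* (r = 0.890). Without C10-434 the same r was 0.914, 0.980 and 0.881. These are descriptions of points that share arrays and Cy-3 background.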
